A study of Mus musculus with 8 samples.

Results

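The 48 genes described here are interferon-stimulated genes, that is, genes whose transcription rises when a cell senses interferon. They were taken by symbol from a list, and all 48 were found among the 23366 genes of the deposited count table. Of these, 46 passed the filter on low counts and were tested with the other genes, 11721 in all. The exceptions were Oasl1 and Sp100, whose counts are given with their families. A filter on low counts keeps a gene that is high in either population, so the 46 tested genes are not the whole list.

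Interferons bind receptors at the cell surface and activate Janus kinases, which phosphorylate transcription factors. Type I and type III interferons act mainly through a complex that holds Stat2 and Irf9 and binds the interferon-stimulated response element (ISRE) in promoters, and interferon gamma acts mainly through the gamma-activated sequence (GAS). The genes they switch on block viral replication, mark intracellular microbes for destruction, feed antigen presentation and damp the response itself. In islets, beta cells respond to interferon, and an interferon signature accompanies autoimmune attack in NOD mice and in people with type 1 diabetes.

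RNA was sequenced from insulin-producing beta cells of the pancreas that had been sorted from NOD mice aged 8 to 10 weeks. NOD is an inbred strain that develops autoimmune diabetes, and no other allele or treatment is named for either group. The sort gave a population called bottom and one called top, and the labels do not say which property separated them. Each population had 4 libraries, made from about 1000 cells each by SMARTer cDNA amplification and Nextera XT tagmentation. Bottom 1, bottom 2, top 1 and top 2 formed batch 1, and bottom 3, bottom 4, top 3 and top 4 formed batch 2. The labels do not tie libraries to animals, so the p-values rest on the variation among these 8 libraries, part of which may be technical.

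Libraries held 7256042 to 11262368 estimated counts in bottom and 6657639 to 9366913 in top. Levels are in CPM, counts scaled to library size, with the trimmed mean of M values (TMM) as the scaling, and 3 counts, taken as the floor of detection, correspond to 0.278 to 0.328 CPM in bottom libraries and 0.371 to 0.476 CPM in top libraries, for counting error only. Summed beta cell markers (8 genes, among them Ins1 and Ins2) reached 38700 to 81200 CPM in bottom and 343000 to 504000 CPM in top. Summed delta cell markers reached 33400 to 57800 CPM in bottom and 2650 to 5300 CPM in top. The PP cell gene Ppy reached 8230 to 78800 CPM in bottom and 306 to 1690 CPM in top. Summed alpha cell markers reached 28900 to 142000 CPM in bottom and 65100 to 138000 CPM in top. Libraries of both populations thus held transcripts of other endocrine cells beside those of beta cells, with more delta and PP cell transcripts in bottom. In such bulk libraries, fewer cells of a type and less RNA per cell cannot be told apart. Top 3 stood apart from the other top libraries in the interferon-stimulated genes, and it had the fewest genes with a count, 12853 against 12971 to 14381 in the other 7 libraries. The populations are therefore compared with and without top 3.

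Promoter sequences of the list were searched for the letters that the factors of the pathway are known to bind. The mouse RefSeq promoter table (build GRCm38.p6, whereas the submitters' notes name mm9) holds windows from 250 bases before to 50 bases after a gene's start, and 37 of the 48 genes matched it, with 45 windows. The ISRE core GAAANNGAAA, or its other strand TTTCNNTTTC, occurred in 19 of the 45 windows (42.2%), and in 1131 of all 32851 windows (3.44%). The GAS sequence TTCNNNGAA, which reads alike on both strands, occurred in 11 of the 45 windows (24.4%) and in 2726 of all windows (8.3%). Shown are the 250 bases before the start of 3 antiviral genes whose windows hold an ISRE core. They are Bst2 and Rsad2, in which top 3 stood far above the other top libraries, and Isg15, in which top 1 was higher than top 3 and the remaining top libraries had 0 counts. Capitals mark the ISRE core on either strand.
Isg15, chr4:156200819-156201068, minus strand: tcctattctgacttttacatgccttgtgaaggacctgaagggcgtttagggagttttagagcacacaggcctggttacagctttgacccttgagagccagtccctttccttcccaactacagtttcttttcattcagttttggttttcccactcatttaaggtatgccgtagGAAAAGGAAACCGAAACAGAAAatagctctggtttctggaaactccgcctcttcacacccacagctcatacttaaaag
Bst2, chr8:71537473-71537722, minus strand: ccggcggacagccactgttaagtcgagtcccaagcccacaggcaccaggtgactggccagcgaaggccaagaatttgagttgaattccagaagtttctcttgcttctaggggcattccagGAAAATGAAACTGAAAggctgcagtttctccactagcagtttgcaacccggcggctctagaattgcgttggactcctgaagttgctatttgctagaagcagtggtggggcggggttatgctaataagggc
Rsad2, chr12:26456453-26456702, minus strand: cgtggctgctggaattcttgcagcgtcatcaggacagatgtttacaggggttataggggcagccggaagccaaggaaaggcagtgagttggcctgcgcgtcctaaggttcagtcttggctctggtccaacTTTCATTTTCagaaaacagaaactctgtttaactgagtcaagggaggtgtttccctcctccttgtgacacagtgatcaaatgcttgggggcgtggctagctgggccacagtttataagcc
The Isg15 run in capitals holds 3 overlapping cores and the Bst2 run holds 2, while Rsad2 has 1 core, on the other strand. No match says only that these letters are not in the window, as for either sequence in Ifi44 and Ifi47 and for the ISRE core in Ifit2.

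A GAS followed directly by an ISRE core was seen in 3 promoters of the interferon-inducible GTPases, with 2 bases between the motifs in each. They were picked after their values had been seen. All 3 genes were highest in bottom 3 or top 3, but so was every other listed GTPase, among them Ifi47, whose window holds neither motif. Of the 46 tested genes, bottom 3 was the highest library for 19 and top 3 for 17. Capitals mark the GAS and then the ISRE core.
Tgtp1, chr11:48992314-48992334, minus strand: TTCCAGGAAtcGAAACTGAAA
Igtp, chr11:58199511-58199531, plus strand: TTCTAGGAActGAAACTGAAA
Irgm2, chr11:58214902-58214922, plus strand: TTCCAGGAActGAAACTGAAA
The ISRE core is identical in these 3 promoters. Its first base lies 77 bases before the start of Tgtp1, 34 before that of Igtp and 64 before that of Irgm2. In the Bst2 promoter a GAS overlaps the first ISRE core. A match is a description of the letters and not a measured binding site.

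**Figure D1:**
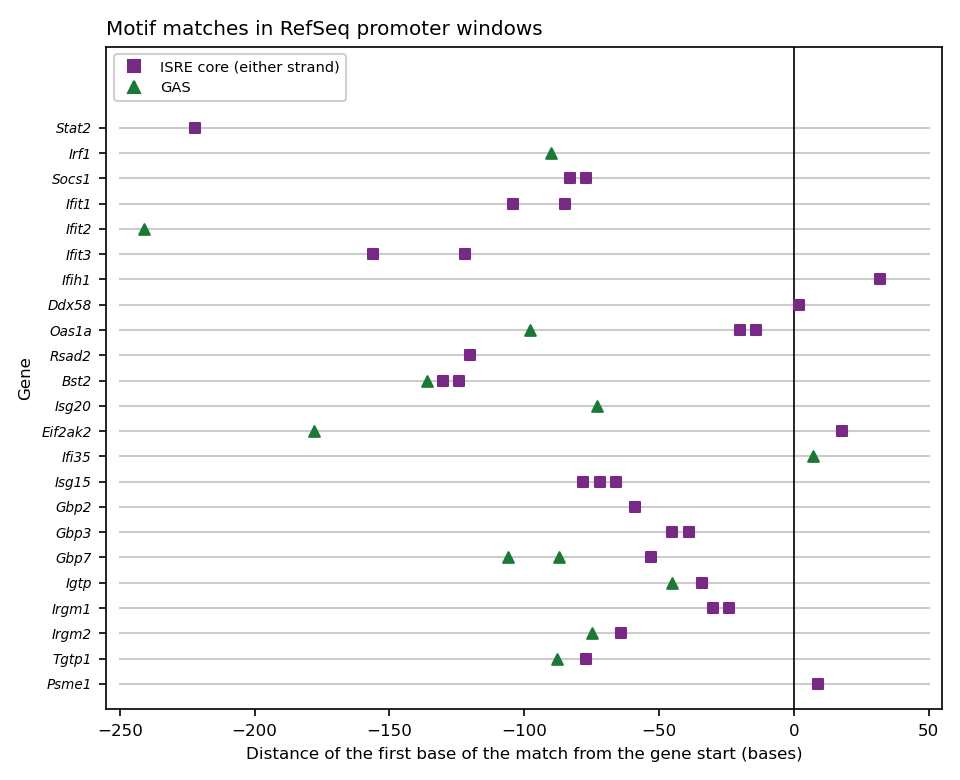
Positions of ISRE core (squares) and GAS (triangles) matches in the RefSeq promoter windows of the listed genes that hold at least 1 match; the x axis is the distance in bases from the gene start. In Tgtp1, Igtp and Irgm2 the GAS and the ISRE core sit side by side, and in Isg15 3 ISRE cores overlap.

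No interferon-stimulated gene was called higher or lower in bottom than in top, whereas the libraries of 1 population differed widely from each other. Top 3, bottom 3 and bottom 4, all of batch 2, held the highest levels, and top 4, also of batch 2, the lowest. In the edgeR quasi-likelihood test with batch as a covariate, 33 of 11721 genes (0.282%) were called higher in bottom and 19 (0.162%) lower at an adjusted p under 0.05, and 0 of the 46 interferon-stimulated genes were among either. With such small shares over all genes, 0 of 46 does not set the list apart. None of the 46 had an unadjusted p under 0.05 in that test. Of all tested genes, 1202 (10.3%) passed that limit in either direction, 659 of them (5.62% of all tested) with a higher level in bottom. With DESeq2 4 of the 46 had an unadjusted p under 0.05, against 14.8% of all tested genes, and with limma-trend 6 of the 46, against 12.8%. Neither tool called any of the 46, while DESeq2 called 587 of all tested genes (5.01%) and limma-trend 137 (1.17%). The lowest adjusted p of the 46 in edgeR was 0.492, for Bst2.

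Most of the point estimates were nevertheless above 0. The log2 fold change of bottom over top was positive for 35 of 46 genes (76.1%), against 50.1% of all tested genes. The median was 0.46, against 0.0033 over all tested genes. No gene of the list had bottom libraries all above or all below the top libraries, a pattern of 3.31% of all tested genes in the first direction and 3.91% in the second. The median also depended on single libraries, at 0.21 without top 4 and 0.21 without bottom 3. Without top 3 the median of the list was 0.93, against 0.021 over all genes, and 40 of 48 genes (83.3%) were positive, against 50.9% of all 12423 genes tested in that fit. In that fit edgeR called 17 genes (0.137%) higher and 11 (0.0885%) lower in bottom, and 0 of the 48 were among them. Unadjusted p lay under 0.05 with a higher level in bottom for 16 of the 48 (33.3%), against 7.0% of all genes. Since top 3 was left out for its levels of these very genes, these numbers describe the other 7 libraries and are no independent support.

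**Figure D2:**
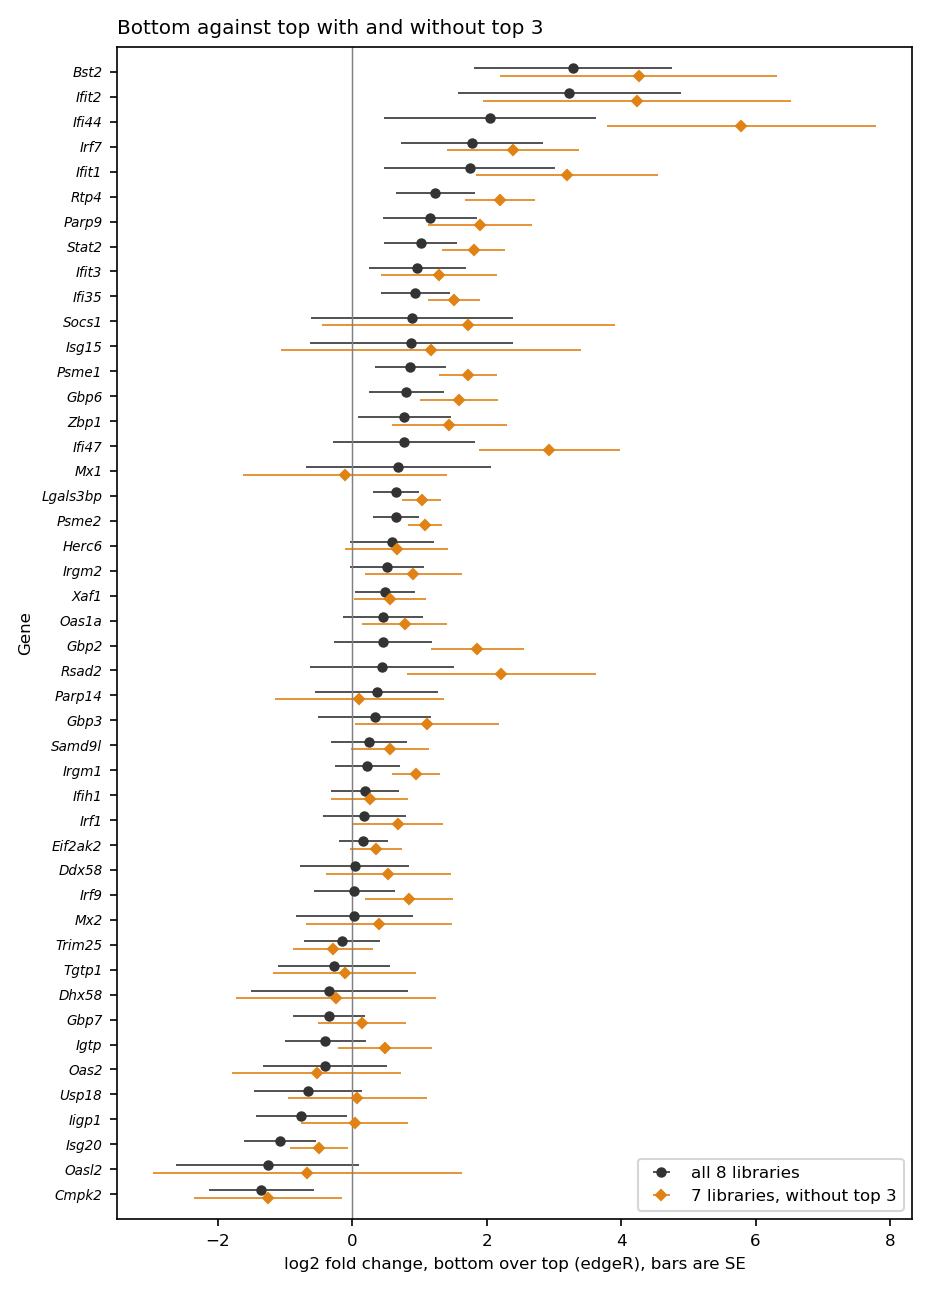
Log2 fold change of bottom over top from edgeR (x axis, bars are SE) for the 46 tested genes, with all 8 libraries (dark circles) and without top 3 (orange diamonds). With 8 libraries, 35 of the 46 points lie above 0, and leaving out top 3 moves the estimates of Ifi44, Ifi47 and Rsad2 furthest to the right.

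The transcription factors of the pathway all had positive estimates, and 0 of 4 passed the test. Stat2, which joins Irf9 in the complex that binds the ISRE, stood at 66.9, 63.4, 98.9 and 58.0 CPM in bottom (in the order of replicates 1 to 4, as for all genes) and at 24.3, 27.0, 83.7 and 12.7 CPM in top. Bottom libraries lay close together, and top 3 was the 1 top library among them. Bottom over top, the log2 fold change was 1.02 (SE 0.54, n = 4 each, edgeR adjusted p = 0.588), and 1.81 (SE 0.47, edgeR adjusted p = 0.206) without top 3. Irf9, its DNA-binding partner, stood at 21.0, 46.2, 72.9 and 97.7 CPM in bottom and at 41.9, 22.5, 153 and 17.3 CPM in top, with the highest level in top 3 and the lowest in top 4. Irf9 had an estimate of 0.032 (log2, SE 0.60, edgeR adjusted p = 0.991), and 0.84 without top 3. Irf7, which amplifies the production of type I interferon, stood at 47.96, 15.4, 29.2 and 10.2 CPM in bottom and at 3.596, 1.51, 28.6 and 11.0 CPM in top. Bottom 1 was highest, and bottom 3 and top 3 were close to each other. For Irf7 the log2 fold change was 1.78 (SE 1.06, edgeR adjusted p = 0.649), and 2.39 without top 3. Irf1, a factor induced chiefly by interferon gamma, stood at 47.8, 446, 537 and 291 CPM in bottom and at 199, 158, 689.5 and 200.4 CPM in top. Bottom 1 was the lowest of all 8 and top 3 the highest, and the log2 fold change was 0.18 (SE 0.62, edgeR adjusted p = 0.959), 0.68 without top 3 and -0.74 without bottom 2. Bottom 1 thus held the highest level of Irf7 and the lowest of Irf1.

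Both feedback inhibitors were low or uneven. Socs1, which blocks the Janus kinases, had 3, 23, 31 and 1 counts in bottom 1 to bottom 4 and 12, 0, 11 and 0 in top 1 to top 4. Usp18, which removes ISG15 from proteins and restrains the type I interferon receptor, stood at 3.496, 40.8, 63.8 and 28.0 CPM in bottom and at 45.5, 34.7, 115 and 12.2 CPM in top. The populations overlapped throughout, with bottom 1 lowest and top 3 highest. For Usp18 the log2 fold change was -0.66 (SE 0.81, edgeR adjusted p = 0.871), and 0.073 without top 3.

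The IFIT proteins bind viral RNA and stop its translation. Ifit1 stood at 156, 1.12, 131 and 85.2 CPM in bottom and at 19.0, 4.77, 119 and 6.51 CPM in top, so bottom 2 lay below all top libraries while top 3 sat among the other 3 bottom libraries. The level of Ifit1 in top 3 was 18.3 times the median of the other top libraries. For Ifit1 the log2 fold change was 1.75 (SE 1.27, edgeR adjusted p = 0.725), 3.20 without top 3 and -0.41 without bottom 1. Ifit2 stood at 0, 14.02, 27.5 and 66.2 CPM in bottom and at 0.144, 1.88, 7.30 and 0 CPM in top, where its counts were 1, 15, 59 and 0. Bottom 1 had no count of Ifit2 although Ifit1 was highest there. For Ifit2 the log2 fold change was 3.23 (SE 1.65, edgeR adjusted p = 0.565), and 4.24 without top 3. Ifit3 had its highest level in bottom 3, at 120.3 CPM, and an estimate of 0.97 (log2 fold change, SE 0.73, edgeR adjusted p = 0.740).

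The cytosolic RNA sensors had estimates near 0. Log2 fold changes were 0.19 (SE 0.51) for Ifih1, which encodes MDA5, 0.036 (SE 0.81) for Ddx58, which encodes RIG-I, and -0.34 (SE 1.17) for Dhx58, which encodes the regulator LGP2. Ifih1 was the steadiest of the 3, at 12.6, 40.4, 27.3 and 30.9 CPM in bottom and at 17.8, 28.0, 29.1 and 22.5 CPM in top, and its level in top 3 was 1.29 times the median of the other top libraries.

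The OAS enzymes make short oligoadenylates that activate RNase L. Oasl2 stood at 15.2, 0, 57.7 and 68.4 CPM in bottom and at 23.2, 46.2, 157 and 2.06 CPM in top, a range that includes no count at all in bottom 2 and the maximum in top 3. Its log2 fold change was -1.26 (SE 1.36, edgeR adjusted p = 0.852), and -0.67 without top 3. Oas1a had a log2 fold change of 0.46 (SE 0.60) and Oas2 of -0.40 (SE 0.93), and each was highest in a library of batch 2. Oasl1, which in mice also restrains the translation of Irf7, had 443, 74, 36 and 7 counts in bottom and 6, 2, 1 and 5 in top, and did not pass the filter. Most of its counts lay in bottom 1, the library where Irf7 and Ifit1 were highest as well.

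**Figure D3:**
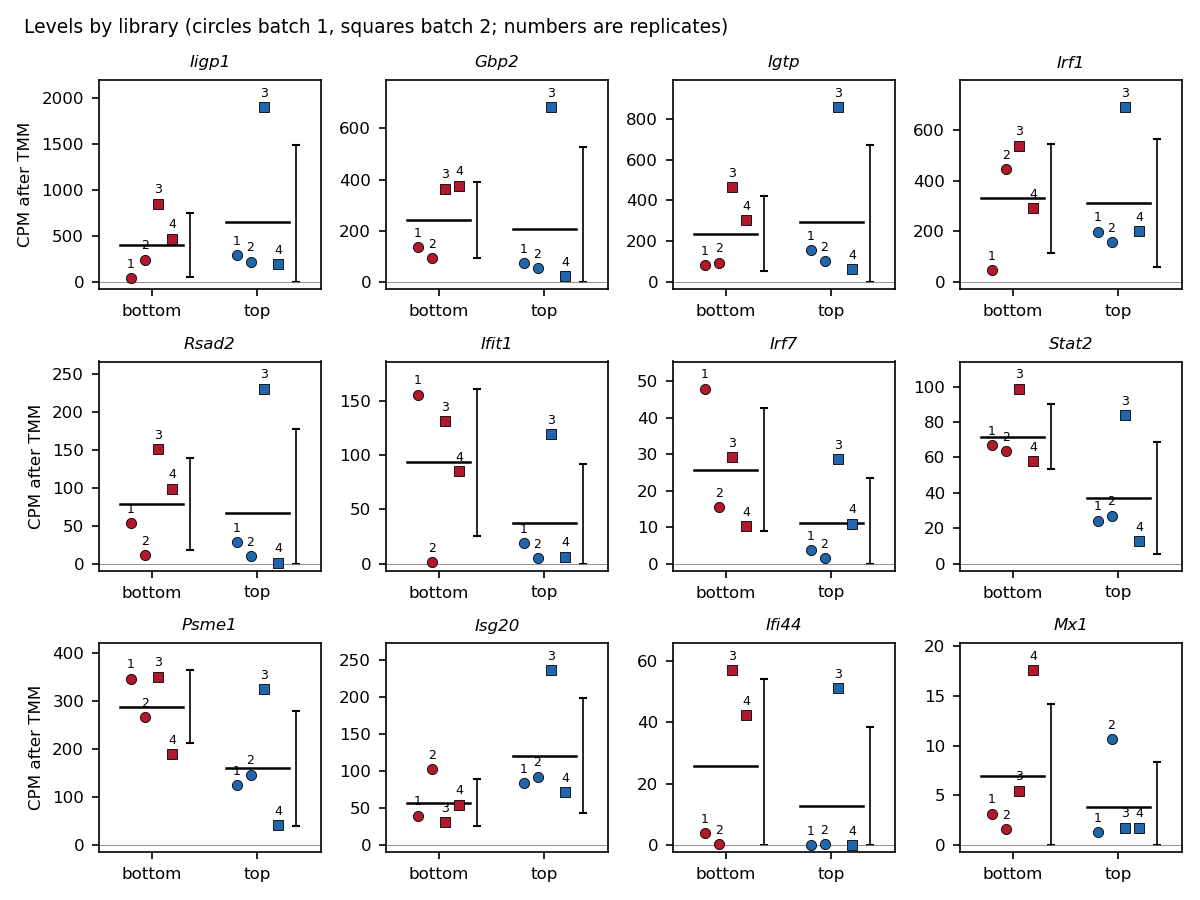
Levels of 12 genes in CPM (y axis) in bottom (red) and top (blue) libraries, with circles for batch 1, squares for batch 2 and the replicate number above each point; the horizontal bar is the mean of 4 libraries and the vertical bar the SD, drawn down to 0 at most. Top 3 is the highest top library in every panel except Mx1, and bottom 3 and bottom 4 exceed bottom 1 and bottom 2 for Iigp1, Gbp2, Igtp, Rsad2, Ifi44 and Mx1.

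Among the other antiviral effectors, Bst2 had the largest positive estimate of all 46 genes. Bst2, or tetherin, holds budding virions at the cell surface. It stood at 2.51, 0.187, 17.5 and 12.97 CPM in bottom and at 0, 0.377, 2.23 and 0 CPM in top, from 23, 2, 166 and 140 counts in bottom and 0, 3, 18 and 0 in top. Bottom 3 and bottom 4 stood above the other 6 libraries, and bottom 2 was within the range of top. Between the populations the log2 fold change was 3.28 (SE 1.47, edgeR adjusted p = 0.492, and 0.494 without top 3). Ifi44, an interferon-induced antiviral gene, had 35, 2, 542 and 458 counts in bottom and 0, 2, 414 and 0 in top, so bottom 3, bottom 4 and top 3, all of batch 2, held by far the most. Its log2 fold change was 2.05 (SE 1.58, edgeR adjusted p = 0.756). Without top 3 there were 1037 counts of Ifi44 in bottom against 2 in top, a ratio of 274 in scaled counts (95% exact binomial interval 75.7 to 2270), and edgeR gave an adjusted p of 0.317. For Bst2 the ratio without top 3 was 58.3 (19.8 to 284, from 331 counts in bottom and 3 in top), and these intervals cover counting error only.

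Rsad2, the viperin that makes a chain-terminating nucleotide, stood at 53.5, 11.0, 151 and 98.6 CPM in bottom and at 28.2, 9.42, 231 and 0.953 CPM in top. Top 3 was the highest library and top 4 the lowest, although both are top libraries of batch 2. For Rsad2 the log2 fold change was 0.44 (SE 1.07, edgeR adjusted p = 0.939), and 2.22 (edgeR adjusted p = 0.627) without top 3. Cmpk2, a nucleotide kinase that is the genomic neighbour of Rsad2, stood at 6.12, 1.59, 23.5 and 24.3 CPM in bottom and at 23.0, 16.2, 50.5 and 11.4 CPM in top. It had the lowest log2 fold change of the list, -1.35 (SE 0.78, edgeR adjusted p = 0.639, and -1.25 without top 3), so the neighbours had estimates of opposite sign. Isg20, an exonuclease that degrades RNA, stood at 39.9, 102, 31.1 and 54.4 CPM in bottom and at 83.3, 92.2, 236 and 71.1 CPM in top, with top 3 far above the rest. With all libraries the log2 fold change was -1.07 (SE 0.54, edgeR adjusted p = 0.554), and -0.49 without top 3. Mx1, a GTPase that blocks influenza virus, stood at 3.17, 1.59, 5.48 and 17.6 CPM in bottom and at 1.29, 10.7, 1.73 and 1.75 CPM in top. Here top 2 rather than top 3 stood apart, and the log2 fold change was 0.69 (SE 1.38, edgeR adjusted p = 0.924), and -0.11 without top 3. Mx2 had a log2 fold change of 0.031 (SE 0.87).

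Rtp4, which binds zinc and restricts flaviviruses, stood at 144, 98.9, 259 and 156 CPM in bottom and at 42.6, 43.6, 193 and 18.6 CPM in top. Apart from top 3 every bottom library lay above every top library. Its log2 fold change was 1.23 (SE 0.59, edgeR adjusted p = 0.522), and 2.19 (SE 0.52, edgeR adjusted p = 0.177) without top 3. Ifi35 was likewise separated but for top 3, with the highest level in bottom 1, at 253 CPM, and log2 fold changes of 0.94 with and 1.52 without top 3 (edgeR adjusted p = 0.600 and 0.206). Eif2ak2, the kinase PKR that halts translation, was among the steadiest genes, at 43.8, 31.9, 44.0 and 60.9 CPM in bottom and at 30.4, 29.3, 65.8 and 39.9 CPM in top (log2 fold change 0.17, SE 0.36). Zbp1, a sensor of Z-form nucleic acids, Xaf1, a partner of the apoptosis inhibitor XIAP, and Samd9l, which inhibits translation, had log2 fold changes of 0.78 (SE 0.70), 0.49 (SE 0.44) and 0.25 (SE 0.57). Zbp1 and Xaf1 were highest in bottom 3, and Samd9l in bottom 1.

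Isg15 is a ubiquitin-like protein that is attached to other proteins during the response. Its transcripts were few, with 20, 3, 29 and 22 counts in bottom and 20, 0, 10 and 0 in top, and the log2 fold change was 0.88 (SE 1.51, edgeR adjusted p = 0.908), and 1.17 without top 3. Herc6, the ligase that attaches ISG15 in mice, Trim25, a ligase that acts on RIG-I, and the ADP-ribosyltransferase gene Parp14 had log2 fold changes of 0.60 (SE 0.63), -0.15 (SE 0.57) and 0.36 (SE 0.92). Parp9, of the same enzyme family as Parp14, stood at 153, 37.3, 74.6 and 31.2 CPM in bottom and at 58.7, 18.8, 46 and 6.51 CPM in top (log2 fold change 1.15, SE 0.70, edgeR adjusted p = 0.661). Within this group Trim25 and Parp9 were highest in bottom 1, and Herc6 and Parp14 were highest in bottom 3 and bottom 4.

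The interferon-inducible GTPases, which coat and disrupt vacuoles that hold microbes, were higher in top 3 than in the other top libraries without exception. Top 3 was the highest top library for 10 of 10 and the highest of all 8 libraries for 6, and it exceeded the median of the other top libraries by a median of 8.49 times. Iigp1 stood at 41.1, 244, 854 and 474 CPM in bottom and at 292, 221, 1905 and 197 CPM in top. Gbp2, a guanylate-binding protein, stood at 136, 93.1, 364 and 375 CPM in bottom and at 74.1, 53.9, 683 and 23.2 CPM in top. Igtp stood at 83.4, 94.0, 464 and 304 CPM in bottom and at 156, 102, 857 and 62.2 CPM in top. In all 3, top 3 was above every bottom library and the other top libraries were below bottom 3 and bottom 4. Log2 fold changes were -0.75 (SE 0.67) for Iigp1, 0.45 (SE 0.73) for Gbp2 and -0.40 (SE 0.60) for Igtp (edgeR adjusted p = 0.800, 0.904 and 0.896). Without top 3 they were 0.038, 1.86 and 0.49 (edgeR adjusted p = 0.992, 0.341 and 0.854).

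Gbp6 stood at 88.7, 184, 908 and 468 CPM in bottom and at 77.5, 79.1, 701 and 82.2 CPM in top, with bottom 3 above top 3. The 3 other top libraries lay close together below all bottom libraries. Irgm1, a regulator of the other immunity-related GTPases, stood at 112, 196, 358 and 233 CPM in bottom and at 108, 86.6, 576 and 109 CPM in top, again with top 3 highest. Ifi47 stood at 58.1, 77.3, 141 and 101 CPM in bottom and at 31.8, 11.2, 259.6 and 1.43 CPM in top, a spread among top libraries from 9 to 2099 counts. Gbp7 stood at 98.5, 42.6, 333 and 181 CPM in bottom and at 135, 99.9, 426 and 70.7 CPM in top, with the populations overlapping. Log2 fold changes were 0.81 (SE 0.56) for Gbp6, 0.22 (SE 0.48) for Irgm1, 0.77 (SE 1.06) for Ifi47 and -0.34 (SE 0.54) for Gbp7. Without top 3 they were 1.59, 0.94, 2.93 and 0.15. The remaining 3, Gbp3, Irgm2 and Tgtp1, had log2 fold changes of 0.34 (SE 0.84), 0.52 (SE 0.55) and -0.27 (SE 0.84), and bottom 3 was their highest library. Gbp6 and Tgtp1 have near-identical relatives, and Igtp and Irgm2 overlap in the GENCODE annotation, so reads may have been divided between them by estimation.

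The proteasome activator subunits Psme1 and Psme2, which open the proteasome for the supply of antigenic peptides, were among the steadiest genes in bottom. Psme1 stood at 346, 266, 350.5 and 189 CPM in bottom and at 125, 147, 325 and 41.8 CPM in top. Psme2 stood at 622, 464, 661 and 482 CPM in bottom and at 276, 295, 664 and 223 CPM in top. For both, top 3 reached the level of the bottom libraries and the other top libraries lay below all of them. The log2 fold change was 0.86 (SE 0.53, edgeR adjusted p = 0.667) for Psme1 and 0.65 (SE 0.34, edgeR adjusted p = 0.589) for Psme2. Without top 3 it was 1.72 (SE 0.43, edgeR adjusted p = 0.191) and 1.08 (SE 0.25, edgeR adjusted p = 0.177). Lgals3bp, a secreted protein that binds galectins, stood at 481, 434, 369 and 269 CPM in bottom and at 305, 184, 352 and 132 CPM in top, and its estimate was 0.65 (log2, SE 0.34, edgeR adjusted p = 0.585), and 1.03 without top 3. Sp100, a component of nuclear bodies, did not pass the filter. It had 2, 198, 16 and 145 counts in bottom and 2, 1, 0 and 0 in top, so bottom 2 and bottom 4 held most of its counts, and bottom 1 was at the level of top. The ratio of its scaled counts was 87.8 (95% exact binomial interval 29.8 to 428, counting error only).

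Separation of the populations apart from top 3 was seen for 9 of the 46 genes, with every bottom library above top 1, top 2 and top 4. They were Stat2, Rtp4, Ifi35, Gbp2, Gbp6, Irgm1, Ifi47, Psme1 and Psme2. That is 19.6% of the list, against 5.38% of all tested genes. The opposite order, with every bottom library below these 3, was seen for 0 of the 46 and for 6.19% of all tested genes. Since top 3 was left out for its levels of these very genes, both shares describe the other 7 libraries and are no independent support. With all 8 libraries, every bottom library lay above every top library for 0 of the 46, against 3.31% of all tested genes.

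**Figure D4:**
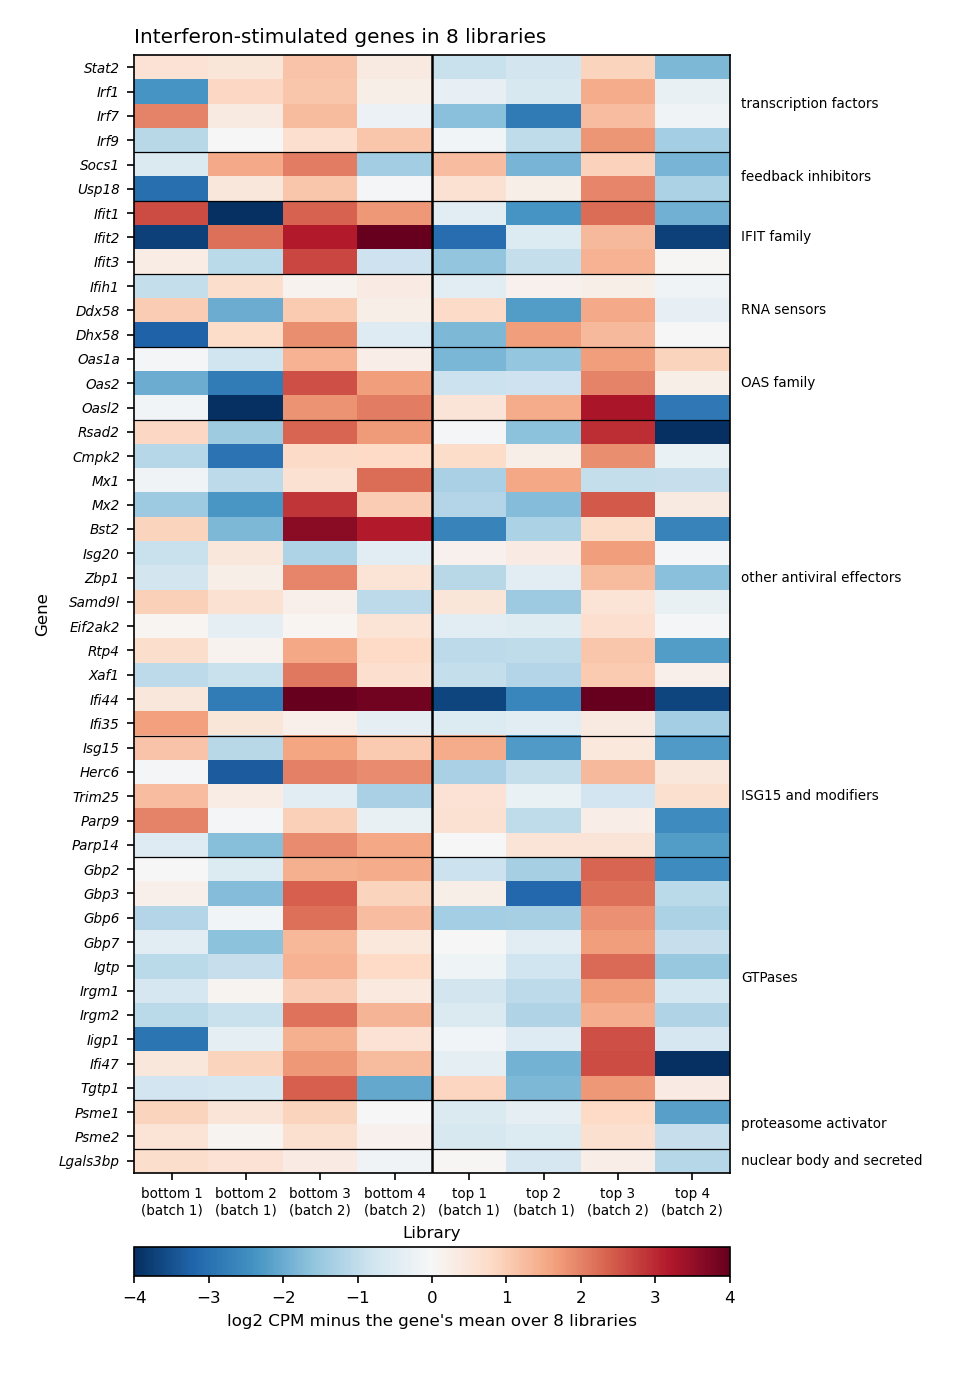
Log2 CPM of the 46 tested genes (rows, grouped by role) in each library (columns), less the mean of the gene over the 8 libraries. Bottom 3 and top 3 are above the mean for 44 of 46 genes each, and bottom 1 is high for Irf7, Ifit1 and Parp9 while it is low for Irf1, Usp18, Ifit2 and Iigp1.

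The spread between libraries of 1 population was wider for these genes than for most. The SD of log2 CPM among bottom libraries had a median of 1.41 over the list and 1.02 over all tested genes, and the list's median exceeded the SD of 66.3% of them. Among top libraries it was 1.36 over the list and 0.75 over all tested genes (above the SD of 77.9% of them), and without top 3 it was 0.81 and 0.61. In bottom the SD ran from 0.26 for Psme2 to 3.83 for Oasl2, and in top from 0.32 for Ifih1 to 3.76 for Ifi44. Summed over the list, levels were 3675, 3504, 8633 and 5115 CPM in bottom 1 to bottom 4 and 2818, 2120, 10480 and 1863 CPM in top 1 to top 4. The highest sum and the lowest thus belonged to top libraries of the same batch.

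The median deviation of the 46 genes from their own mean log2 CPM was -0.092, -0.37, 1.43 and 0.57 in bottom 1 to bottom 4, and -0.46, -0.97, 1.43 and -1.12 in top 1 to top 4. Bottom 3 and top 3 shared the same median, and each was above the mean for 44 of 46 genes. Top 3 was the highest of the 8 libraries for 17 genes (37.0%, against 13.4% of all tested genes) and the highest of the 4 top libraries for 40 (87.0%, against 28.8%). It was over 2-fold above the median of the other top libraries for 39 (84.8%, against 18.6%). Among these 39, the median of the other top libraries was 0 for Socs1, Isg15, Bst2 and Ifi44. The 6 genes for which another top library was higher were Socs1, Dhx58, Mx1, Isg15, Trim25 and Parp9. Of these, Socs1, Dhx58, Isg15 and Parp9 nevertheless counted among the 39. Top 4 was the lowest of all 8 libraries for 15 genes (32.6%, against 11.3%). The highest library was top 3, bottom 3 or bottom 4 for 38 genes (82.6%, against 36.5%). These 3 libraries were grouped after their values had been seen. Bottom 3 was highest for 19 genes, bottom 1 for 7, bottom 4 for 2 and bottom 2 for 1, while top 1, top 2 and top 4 were highest for 0. Over all tested genes the shares were 12.9% for bottom 3, 20.2% for bottom 1, 10.2% for bottom 4 and 15.3% for bottom 2. For top 1, top 2 and top 4 they were 7.82%, 9.44% and 10.8%.

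**Figure D5:**
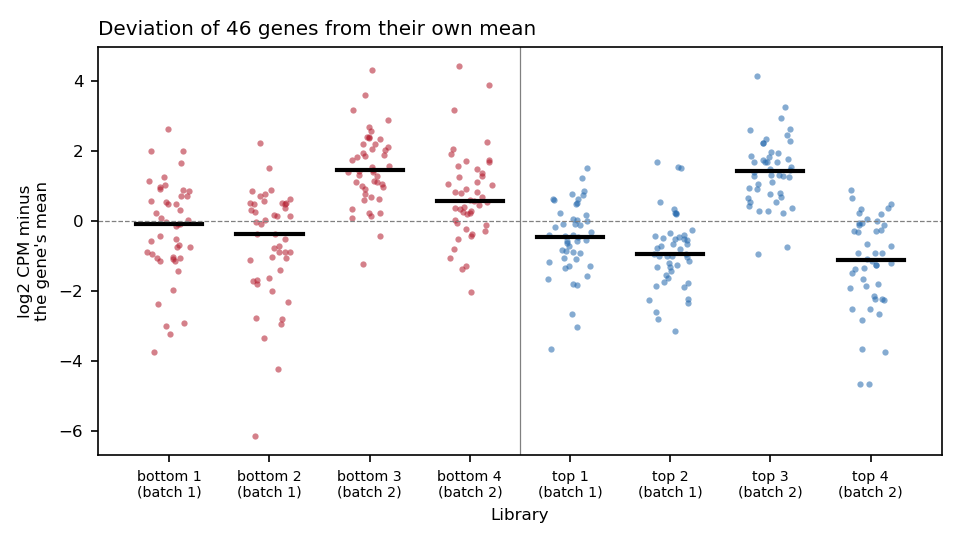
Each point is 1 of the 46 tested genes, placed by its log2 CPM in a library less its mean over the 8 libraries (y axis); thick bars are medians, and red and blue mark bottom and top. The medians of bottom 3 and top 3 are both 1.43, and top 4 has the lowest, -1.12.

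Roles did not move in step in bottom 1, nor did the genes within some roles. Its median deviation was 1.13 for Isg15 and its modifiers, 0.71 for the proteasome activator and 0.31 for the IFIT family. It was -0.72 for the GTPases, -1.80 for the feedback inhibitors and -0.97 for the RNA sensors. The remaining medians were -0.27 for the transcription factors, -0.0995 for the OAS family, 0.079 for the other antiviral effectors and 0.72 for Lgals3bp. The IFIT and RNA sensor medians rest on 3 genes each, of unlike levels. Ifit1 was highest of all 8 libraries in bottom 1, where Ifit2 had 0 counts. Ddx58 was above its own mean there, while Ifih1 and Dhx58 were at their lowest. Medians of both signs were not particular to bottom 1. In bottom 2 they ran from -2.79 for the OAS family to 0.98 for the feedback inhibitors. In top 1 they ran from -1.57 for the IFIT family to 0.92 for the feedback inhibitors. In top 3 every role group had a positive median, from 0.27 for the secreted Lgals3bp to 2.01 for the GTPases. The same held in bottom 3, from 0.33 for Lgals3bp to 2.66 for the IFIT family.

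By batch, the difference of bottom minus top in mean log2 CPM was positive for 30 of 46 genes in batch 1 (against 45.3% of all tested genes) and for 39 of 46 in batch 2 (against 51.9%). Medians over the list were 0.55 in batch 1 and 0.74 in batch 2, and over all tested genes -0.13 and 0.048. The interaction of population and batch was called for 0 of the 46 genes and for 0.0% of all tested genes (edgeR, adjusted p under 0.05), and 0 of the 46 were called by DESeq2, against 188 of all tested genes (1.6%), or by limma-trend, against 0.0%. Unadjusted p was under 0.05 for Irf7 and Parp14, that is 2 of 46, against 7.55% of all tested genes, and for 2 genes of the list also in DESeq2 (against 10.4% of all) and in limma-trend (against 7.29%). For Irf7 bottom minus top was 3.41 in batch 1 and -0.036 in batch 2 (interaction edgeR adjusted p = 0.631), and for Parp14 it was -1.37 and 2.58 (interaction edgeR adjusted p = 0.607).

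The upstream genes of the pathway were measured too. Of 19 interferon genes, 17 had a count of 0 in all 8 libraries, Ifng among them. Ifnb1 had 11 counts, all in bottom 4, and Ifnk 37 in bottom 4 and 1 in top 3. None could be tested, and a count of 0 in a library allows a level up to that of 3 counts. Of 5 tested receptor genes, 7 kinases and factors, 8 negative regulators and 5 nucleic acid sensing genes, 0 were called in either direction by edgeR, with or without top 3. Of 37 other tested interferon-stimulated genes, edgeR also called 0, their median log2 fold change was 0.57, and top 3 was the highest top library for 28. Over these 62 tested pathway genes, unadjusted p was under 0.05 for 7 in edgeR (11.3%), 10 in DESeq2 (16.1%) and 7 in limma-trend (11.3%), near the 10.3%, 14.8% and 12.8% of all tested genes. DESeq2 called 1 of them, the nuclear body gene Sp140, and limma-trend 0. Some interferon-stimulated genes outside the list did not pass the filter. Among these, Ifi27l2a had 66, 11, 189 and 245 counts in bottom, Ifitm1 had 1, 147, 87 and 492, and both had 0 in every top library. Trim30a had 0, 0, 336 and 273 counts in bottom and 2, 0, 1 and 0 in top. Only Gbp5 of these untested genes had more than 3 counts in top 3, at 107.

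Antigen presentation genes, chemokines and Cd274, 13 tested genes in all, gave 0 calls in edgeR, DESeq2 or limma-trend. Unadjusted p was under 0.05 for 2 (15.4%), 4 (30.8%) and 4 (30.8%) of them, against 10.3%, 14.8% and 12.8% of all tested genes. Their median log2 fold change was 0.66, and top 3 was the highest top library for 11. Without top 3, edgeR called 0 of 14, and unadjusted p was under 0.05 for 9 (64.3%), against 1455 of all 12423 genes. Since top 3 was left out for its levels of the interferon-stimulated genes, this share is no independent support. Cxcl10, a chemokine that draws T cells, stood at 6.99, 81.9, 578 and 462 CPM in bottom and at 128, 87.8, 1058 and 183 CPM in top. Its log2 fold change was -0.76 (SE 0.72, edgeR adjusted p = 0.811), and that of Cxcl11 was -1.29 (SE 0.91, edgeR adjusted p = 0.721). Cxcl9 went the other way, at 0.109, 2.99, 249 and 356 CPM in bottom and 0.144, 0, 35.7 and 0 CPM in top. For Cxcl9 the log2 fold change was 4.11 (SE 1.44, edgeR adjusted p = 0.337).

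Of all tested genes outside the list, those whose log2 CPM followed the list's scaled mean most closely over the 8 libraries were Hist1h1d (Pearson's r = 0.987), Nhlrc2 (0.972), Serpinb9 (0.966), B2m (0.963), D5Ertd605e (0.959), Gbp8 (0.959), Fabp12 (0.956), Tapbp (0.956), Stk38l (0.949) and AW112010 (0.949). These are descriptions over 8 libraries that share depth and preparation, and the genes were picked as the closest among all tested genes outside the list. B2m, the light chain of MHC class I, stood at 2306, 2139, 5019 and 4351 CPM in bottom and at 1869, 979, 5827 and 1176 CPM in top. Serpinb9, an inhibitor of granzyme B, stood at 27.1, 20.8, 203 and 60.0 CPM in bottom and at 18.8, 19.1, 90.8 and 9.69 CPM in top. Both were highest in bottom 3 or top 3 and lowest in top 4 or top 2.

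Markers of other cells were set beside these levels. The 9 pan-leukocyte genes, Ptprc and Lcp1 among them, summed to 5.84 to 8.13 CPM in bottom and 2.86 to 6.18 CPM in top, with 6.18 in top 3, and none was at 0 in all libraries. Ptprc had 28 counts in bottom 3, 1 to 3 in the other bottom libraries, 0 in top 3 and 0 to 5 in the other top libraries. Tyrobp, a signalling adaptor of myeloid and NK cells, had 0 counts in every bottom library, 40 in top 3 (4.95 CPM, most of that library's sum), 9 in top 2 and 0 in top 1 and top 4. The 7 T cell genes summed to 13.3 to 17.6 CPM in bottom and 3.49 to 8.63 CPM in top, and 3 NK cell genes to at most 2.84 CPM in bottom and 0.432 CPM in top. Of 10 macrophage and dendritic cell genes, 6 were at 0 in every library, Csf1r, Cd68 and Itgax among them, and the sum was 0.546 to 3.43 CPM in bottom and 1.59 to 3.89 CPM in top. The 4 B cell genes summed to 0.218 to 0.843 CPM in bottom and 3.52 to 14.7 CPM in top.

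Endothelial genes summed to 2.29, 16.3, 37.5 and 245 CPM in bottom and to at most 6.67 CPM in top, and fibroblast and stellate genes to 3.28, 180, 191 and 769 CPM in bottom and at most 12.4 CPM in top. Both sums were highest in bottom 4 and near 0 in top 3, at 0.124 and 0.371 CPM. Acinar genes summed to 114 to 1350 CPM in bottom, to 212 CPM in top 3 and to 22.6 to 39.6 CPM in the other top libraries. Alpha cell genes summed to 28900 to 142000 CPM in bottom, to 138000 CPM in top 3 and to 65100 to 91900 CPM in the other top libraries. Intestinal epithelium genes summed to 21200, 5200, 39.6 and 13.4 CPM in bottom, so bottom 1, where Irf7, Ifit1 and Oasl1 were highest, also held most of these, and they summed to 51.2 to 1260 CPM in top. Duct genes summed to 57.8 to 335 CPM in bottom and 100 to 212 CPM in top, the PP cell gene Ppy stood at 8230 to 78800 CPM in bottom and 306 to 1690 CPM in top, and erythrocyte genes summed to at most 0.649 CPM in bottom and 0.371 CPM in top. The part of the transcripts of any cell type, leukocytes, endothelial cells and fibroblasts included, in the levels of the interferon-stimulated genes was not tested.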

How the data were processed

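RNA was sequenced in 8 libraries of sorted NOD cells labelled as beta cells, 4 bottom and 4 top, and groups and batches were taken from the labels. The deposited values are expected counts per gene, which RSEM estimates by dividing reads that match several genes, so near-identical genes (Tgtp1 and Tgtp2, Gbp6 and Gbp10, Ifit3 and Ifit3b, Psme2 and Psme2b) are less certain. The submitters' processing notes name RSEM, edgeR and the genome build mm9. Aligner, annotation and versions are not given in the sources used here. Since labels mention no strand-specific step, antisense reads could not be separated.

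Of the deposited expected counts, 34.8% were not whole, and all were rounded. In R 4.3.3, edgeR 4.0.16 scaled libraries by TMM, filterByExpr by population left 11721 genes, and the quasi-likelihood test compared bottom with top with batch as a covariate, with Benjamini-Hochberg adjustment over all genes tested. The tested genes held at least 98.01% of each library's counts, and the common biological coefficient of variation was 0.806. Interaction with batch was tested in the same way. Alternatives were DESeq2 1.42.0, limma-trend (limma 3.58.1), other scaling and filters, single batches and leaving out each library. The procedure was also run on simulated counts with large known changes. Their spread between libraries was set lower than in these data, so that run cannot show which changes could be found here. Intervals on count ratios are exact binomial at 95%, and they and the floor of 3 counts cover counting error only, since amplified reads are not independent molecules.

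The genes, lists and tests were chosen with earlier results of these data known. Values in every library were given for genes called, for the 5 highest and 5 lowest fold changes, the 10 with the most counts, the 6 with at least 100 counts and the largest ratio of top 3 to the median of the other top libraries, and for Irf7, Irf9, Stat2, Irf1, Isg15, Ifit1, Mx1 and Gbp2. Other genes with such values were chosen after these had been seen. Marker lists also covered duct, PP cell and erythrocyte genes. Promoter sequences are from RefSeq (GRCm38.p6) and do not come from the NOD genome.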

Additional observations from a re-analysis of the deposited data

Results flagged for a closer look

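In 14 of 50 groups checked, that is the 25 genes named by rule in each population of 4 libraries, 1 library lay far from the other 3, with a gap to its nearest neighbour of more than 0.829 of the whole range. In 13 of the 14 the library was top 3. Chance marks about 1 in 20 such groups if values are normally distributed, and the CPM used here were not log-transformed. Beyond that, the rate cannot be set against this count: the genes share libraries, and 6 of the 25 were named for their high ratio of top 3 to the other top libraries. Bst2, Ifi44, Ifi47 and Rsad2, that is 4 of the 13, come from those 6, and 9 were named by other rules, some of which also use the levels in top 3. There the guanylate-binding and immunity-related GTPases reached 1905 CPM for Iigp1, 856.8 CPM for Igtp, 700.9 CPM for Gbp6, 682.8 CPM for Gbp2, 576.1 CPM for Irgm1 and 259.6 CPM for Ifi47. Among the antiviral effectors top 3 reached 235.9 CPM for Isg20, 231.0 CPM for Rsad2, 119.3 CPM for Ifit1, 51.19 CPM for Ifi44 and 2.226 CPM for Bst2. The factor Irf1 stood at 689.5 CPM and the proteasome activator subunit Psme2 at 664.2 CPM in that library. The remaining one was Mx1, at 10.67 CPM in top 2. No bottom library was marked for any of the 25 genes.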

How the results depend on the processing

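The count of called interferon-stimulated genes was 0 in edgeR with all 8 libraries and under all 16 alternatives for bottom against top, and 0 under all 12 for the interaction with batch. The lowest adjusted p of a listed gene over these alternatives was 0.088, for Sp100 without bottom 1. The list's median log2 fold change stayed positive in all 16, from 0.21 to 0.93 with 1 library left out, and top 3 was the highest library for 17 genes under each of 3 alternatives tried. The SD among top libraries had a median of 0.81 without top 3, against 1.36 with it. Over all genes, 52 calls became 587 with DESeq2, 137 with limma-trend, 204 without the filter on low counts, 32 without the batch term, 2 in batch 1 alone and 2 in batch 2 alone, and 8 to 60 with 1 library left out. Interaction calls over all genes, 0 in edgeR, became 188 with DESeq2 and 71 without the filter. Of 398 comparisons with an alternative, 25 changed sign, all in 12 of the 25 genes named by rule. With 1 library left out, log2 fold changes ran from -0.75 to 0.15 for Gbp7, -0.41 to 3.20 for Ifit1, -0.81 to 0.49 for Igtp, -1.36 to 0.038 for Iigp1, -0.74 to 0.68 for Irf1, -0.33 to 0.84 for Irf9, -0.043 to 0.94 for Irgm1, -0.11 to 1.93 for Mx1, -0.23 to 2.22 for Rsad2 and -1.45 to 0.073 for Usp18. In batch 2 alone the sign changed for Gbp7 (0.065), Ifi47 (-0.091), Irf1 (-0.089) and Irgm1 (-0.20), in batch 1 alone for Isg15 (-0.25) and Mx1 (-1.35), and with limma-trend for Igtp (0.095) and Irf1 (-0.094). The cause of these changes was not tested. No paired analysis was possible because, in each batch, the libraries of the populations share only the number 1 in their titles. Isg15, Socs1, Bst2, Oasl1 and Sp100 rest on few counts, so their levels are limited by depth.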
